A study of Mus musculus with 6 samples.

Results

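The EGR and NR4A transcription factors and the NAB corepressors were followed on 6 Affymetrix Mouse 430 2.0 arrays. The genes were chosen by name, as Egr1, Egr2, Egr3, Nr4a1, Nr4a2, Nr4a3, Nab1 and Nab2. The annotation names 18193 genes in all. These 8 have 19 of the 45037 probe sets on the array that are not controls, where a probe set is a group of short probes that gives 1 signal. The first group held 3 arrays of cells irradiated with 1 Gy of γ-rays at 0.72 Gy per minute, and the other 3 arrays of mock-irradiated cells (0 Gy), all collected 2 hours later. Each dose held the same 3 WT murine pre-B cell lines, numbered 1 to 3, each derived and transformed with v-Abl on its own. Cells of both doses carried the Eμ-Bcl2 transgene and were kept in 3 μM STI-571 (imatinib) for 48 hours, which blocks the v-Abl kinase and arrests the lines in G1. The Bcl2 product counters apoptosis, so that cells that might otherwise die remain in the sample. In bulk RNA of this kind, more cells with a transcript and more transcript per cell cannot be told apart.

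EGR proteins are zinc finger transcription factors of the immediate early class, whose genes are transcribed within minutes of a signal without new protein synthesis. In lymphocytes they follow signals of the antigen receptor, through the ERK kinases and serum response factor. NAB1 and NAB2 bind EGR proteins and repress their target genes, and NAB2 is itself an EGR target in several cell types. The NR4A proteins (NUR77, NURR1 and NOR-1) are orphan nuclear receptors. Nr4a1 is widely used as a reporter of antigen receptor signalling in T and B cells.

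Egr3 and Nr4a1 had the largest mean differences of the members bright enough to test, with higher signals after 1 Gy in all 3 lines, whereas Nab1 was bright and differed little, and Egr2, Nr4a3 and Nab2 stayed dim on all arrays. Nr4a1 was about as much higher in each line, from 2.04-fold to 2.10-fold. Egr3 was 2.66-fold to 5.01-fold higher. Egr1 went different ways in the 3 lines. Neither Nr4a1 nor Egr3 passed limma's test with dose as the only factor (adjusted p of 0.316 and 0.369). Both passed once the cell line entered the limma fit as a block, so that each line was compared with itself (adjusted p of 0.0146 and 0.0178).

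Of the 19 probe sets, 9 reached a signal of 100 on at least 1 array and were tested. The paper's filter also has a minimum of 100, but on signals processed in another way (RMA, not the deposited MAS5). With dose as the only factor, 0 of the 9 passed limma's test at an adjusted p under 0.05, and 0 had an unadjusted p under 0.05. Over all 21762 probe sets tested, 4.48% passed, 1.93% (419) higher and 2.55% (556) lower (366 and 274 after scaling to a common median). The test named in the paper's methods, a p-value with a minimum of 1.5-fold, also called 0 of the 9, where it called 5.15% of all probe sets higher and 7.95% lower. In the blocked fit 2 of the 9 passed, both higher, whereas 18.3% of all probe sets tested passed in either direction, 6.78% higher and 11.5% lower. A count of 2 is not read as a difference from these shares. The other 10 probe sets had signals between 3.04 and 95.8 on all arrays and were not tested.

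Array quality and cell identity were checked on the same arrays. Of the pre-B cell markers, 11 of 11 genes found in the annotation, among them Cd79a, Vpreb1 and Rag1, had signals of 100 or more on all 6 arrays, with sums of 94474 to 124577 at 1 Gy and 118390 to 122828 at 0 Gy. Within that list, the recombinase genes had lower signals at 1 Gy with no overlap, at 4507 to 5674 for Rag1 (13333 to 18772 at 0 Gy) and 234 to 355 for Rag2 (1105 to 1862 at 0 Gy). Of all probe sets tested, 17.1% were lower with no overlap. All 7 T cell, 3 erythroid and 5 stromal markers found lay under 100 on all arrays. Of 8 myeloid markers 7 did so, and the summed signal of the list was 378 to 486 at 1 Gy and 275 to 355 at 0 Gy. The exception was Itgam, an integrin chain, at 235 to 342 after 1 Gy and 130.1 to 163 in mock cells. Of 4 plasma cell markers 3 were at 100 or more on all arrays, with sums of 3279 to 5068 at 1 Gy and 5247 to 6493 at 0 Gy. The β-actin control probe sets, whose 3' to 5' ratio tracks RNA integrity, gave ratios of 1.26 to 1.38 on the irradiated arrays and of 1.40 to 1.501 on the mock arrays. Those of Gapdh overlapped, at 0.785 to 0.800 on the irradiated and 0.768 to 0.900 on the mock arrays. The part of these differences in the results was not tested.

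The promoters of the 3 Nr4a genes are shown because Nr4a1 passed in the blocked fit, whereas the 3 tested probe sets of Nr4a2 did not and those of Nr4a3 were too dim to test. Each line gives 250 bases before the start site and 50 after it, 5′ to 3′ on the gene's strand, from RefSeq (GRCm38.p6). The windows lie at chr15:101266596-101266895 on the plus strand for Nr4a1, chr2:57123954-57124253 on the minus strand for Nr4a2 and chr4:48045055-48045354 on the plus strand for Nr4a3. Capitals mark the half-site of the cyclic AMP response element, TGACG, on either strand.
Nr4a1: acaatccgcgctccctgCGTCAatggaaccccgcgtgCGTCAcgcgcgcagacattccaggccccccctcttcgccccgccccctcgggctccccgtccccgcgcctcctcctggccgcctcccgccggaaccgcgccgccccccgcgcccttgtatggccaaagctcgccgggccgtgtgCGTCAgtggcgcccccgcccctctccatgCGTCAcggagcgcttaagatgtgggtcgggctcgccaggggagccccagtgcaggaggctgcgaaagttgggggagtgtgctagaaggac
Nr4a2: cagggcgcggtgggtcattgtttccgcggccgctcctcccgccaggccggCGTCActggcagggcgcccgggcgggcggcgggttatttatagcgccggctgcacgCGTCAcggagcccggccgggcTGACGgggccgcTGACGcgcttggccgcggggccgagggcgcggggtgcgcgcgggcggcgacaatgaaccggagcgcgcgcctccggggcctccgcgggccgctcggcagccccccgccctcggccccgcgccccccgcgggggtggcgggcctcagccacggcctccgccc
Nr4a3: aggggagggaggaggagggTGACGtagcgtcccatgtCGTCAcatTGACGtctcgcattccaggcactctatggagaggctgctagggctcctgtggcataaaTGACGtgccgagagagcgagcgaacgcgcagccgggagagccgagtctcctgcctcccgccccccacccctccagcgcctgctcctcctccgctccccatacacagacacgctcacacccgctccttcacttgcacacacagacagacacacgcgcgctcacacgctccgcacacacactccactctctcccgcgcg

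Each of the 3 Nr4a windows holds the half-site 4 times. Of 32817 windows of the same length, 20.8% hold it at least once and 0.232% hold it 4 times or more. The cut of 4 was taken from the Nr4a windows themselves. Their GC contents were 72.3% (Nr4a1), 81.7% (Nr4a2) and 64.7% (Nr4a3), and the other windows were not matched for GC content. In the Nr4a1 window all 4 half-sites are part of the longer string TGCGTCA (both strands searched), which the Nr4a2 and Nr4a3 windows do not hold. That string was counted after the Nr4a1 window had been read. It occurs at least once in 2.11% of the windows, and the Nr4a1 window is the 1 window with 4 of them. The full element TGACGTCA is in none of the 3 windows and in 1.79% of all. The EGR site GCGNGGGCG occurs once in the Nr4a1 window and once in that of Nr4a2, against 5.56% of windows with at least 1, and both matches overlap a GC box (GGGCGG). The CArG box that serum response factor binds is in none of the 3 windows, in 4 of the 5 windows listed for Egr2, which overlap in part, and in 1.63% of all. In the Nab1 window the EGR site occurs 3 times and TGCGTCA once. All 3 EGR matches overlap a GC box, of which this window holds 7 at a GC content of 81.7%. The share of all windows with 3 EGR sites was not counted. The windows of 6 of the 8 genes were used, without Egr1 and Egr3, so that nothing is said of their promoters. A match describes these letters and does not show that a factor binds there.

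The Nr4a1 probe set 1416505_at had signals of 1031, 1557 and 3059.6 in lines 1, 2 and 3 after 1 Gy, and of 502, 764 and 1459.6 in the same lines at 0 Gy. Each line was higher after irradiation, but the doses overlapped, since mock line 3 lay above irradiated line 1. The highest line exceeded the lowest 2.97-fold at 1 Gy and 2.91-fold at 0 Gy, and the order of the lines was the same at both doses. Within the lines, the log2 differences were 1.04, 1.03 and 1.07, with an SD of 0.02. Of all probe sets tested, 99.3% had a larger SD of the 3 differences, whose median was 0.24. The mean log2 fold change was 1.04 ± 0.54 (standard error, limma's adjusted p = 0.316). With the line as a block, the standard error was 0.11 and the adjusted p 0.0146, with a 95% interval of 1.69-fold to 2.52-fold. When any 1 line was left out of the blocked fit, the log2 fold change was 1.03 to 1.05 and the adjusted p 0.0588 to 0.0670 (limma). These fits have 4 arrays. They called 0 of all 21762 probe sets without line 1 or line 2, and 169 higher and 130 lower without line 3. Without line 1 or line 2 the loss of the call was thus common to all probe sets. Without line 3 other probe sets passed and Nr4a1 did not (adjusted p = 0.0670 from limma). The log2 fold change without the block was 0.62 without the irradiated array of line 3 and 1.46 without the mock array of line 3.

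**Figure D1:**
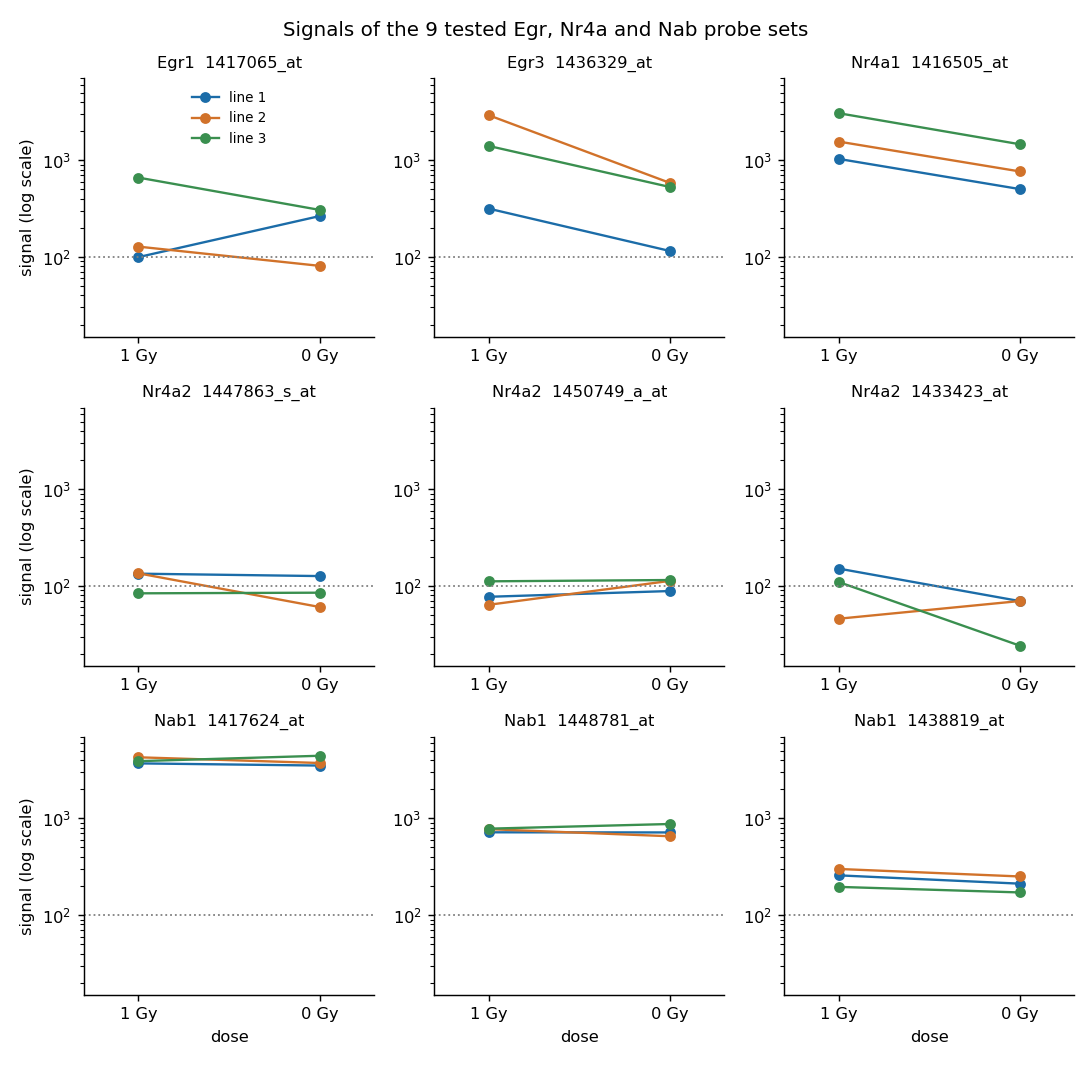
Signals of the 9 tested probe sets (vertical axis, logarithmic, in arbitrary units, with 100 dotted) at 1 Gy and 0 Gy (horizontal axis), with each cell line joined across doses. The 3 Nr4a1 lines run in parallel, all 3 lines of Egr3 probe set 1436329_at are higher at 1 Gy, and the lines of Egr1 cross.

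Nr4a2 (NURR1) had 6 probe sets, and none gave a signal above 151.3 on any array. The 3 that reached 100 did so on 2 or 3 arrays each. Probe set 1433423_at had signals of 151.3, 45.9 and 109.9 in lines 1 to 3 at 1 Gy, against 69.7, 70.0 and 24.1 at 0 Gy. It was higher in lines 1 and 3 after irradiation and lower in line 2. Its log2 fold change of 0.90 had a standard error of 0.61 (adjusted p = 0.442 from limma, and 0.302 with the block). This probe set reached 100 on 2 irradiated arrays and 0 mock arrays, so it was tested only through its irradiated signals. Probe set 1447863_s_at, whose suffix marks probes that can match several transcripts, had 134.1, 135.1 and 84.0 at 1 Gy, against 126.7, 60.6 and 85.3 at 0 Gy. Only line 2 differed by much, and the log2 fold change was 0.41 (adjusted p = 0.532 from limma). Signals of 1450749_a_at were 77.3, 63.9 and 111.8 at 1 Gy, against 88.7, 112.9 and 115.3 at 0 Gy. They were lower in 3 of 3 lines, as for 34.5% of the probe sets tested, without passing (log2 fold change -0.35, adjusted p = 0.458 from limma). The 6 probe sets of this 1 gene thus gave mean differences of both signs, 5 above 0 and 1 below. The 3 that were not tested had mean log2 differences of 0.03 to 0.78, at signals of 10.99 to 95.8. Nr4a3 (NOR-1) had 3 probe sets, with 81.0 as their highest signal, in irradiated line 1. Probe set 1438796_at had signals of 81.0, 64.5 and 70.0 at 1 Gy, against 54.4, 34.97 and 68.2 at 0 Gy, higher in 3 of 3 lines and under 100 throughout. The other pair had signals of 3.04 to 34.8 and were higher in lines 1 and 3 and lower in line 2. Signals this low do not show whether either transcript was absent.

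Egr3 was read by 2 probe sets that differed in brightness. The signals of 1436329_at were 316, 2919 and 1404 in lines 1 to 3 at 1 Gy, against 115 in line 1, 582 in line 2 and 528 in line 3 at 0 Gy. All 3 lines were higher after irradiation, and the doses overlapped because irradiated line 1 lay below mock lines 2 and 3. Line 2 had the largest difference within a line, 5.01-fold, and lines 1 and 3 were 2.74-fold and 2.66-fold higher. The mean log2 fold change was 1.73 ± 1.00 (standard error, limma's adjusted p = 0.369). With the line as a block, the standard error was 0.23 and the adjusted p 0.0178, with a 95% interval of 2.20-fold to 5.02-fold. Without any 1 line, the blocked adjusted p was 0.0517 to 0.0648 and the log2 fold change 1.43 to 1.89 (limma), in the same fits that called few or 0 probe sets of the whole array. Without the block, leaving out the irradiated array of line 1 gave a log2 fold change of 2.62, and leaving out the mock array of line 1 gave 0.98. It was 1.02 when the irradiated array of line 2 was left out. The second probe set, 1421486_at, had signals of 20.0, 42.9 and 26.3 at 1 Gy, against 16.2, 49.1 and 33.7 at 0 Gy. It did not show the difference, and a probe set this dim gives no level to set against the first. The annotation gives no accession for 1436329_at, so that its place in the transcript is not known here.

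Egr1 (Krox-24, also NGFI-A), the best known member of the EGR family, had signals of 99.6, 127.7 and 660.5 in lines 1 to 3 at 1 Gy, against 265, 80.8 and 306 at 0 Gy. Line 1 was lower after irradiation and lines 2 and 3 were higher. The log2 differences within the lines were -1.41, 0.66 and 1.11, and their SD of 1.34 was exceeded by 1.70% of the probe sets tested. The mean log2 fold change was 0.12 ± 0.87 (standard error, limma's adjusted p = 0.956, and 0.889 with the block). Its 95% interval ran from 0.248-fold to 4.76-fold, and from 0.415-fold to 2.85-fold with the block. Neither a fall nor a rise of Egr1 could thus be detected with these arrays. Egr2 (Krox-20) had 2 probe sets, with signals of at most 85.7. For 1427682_a_at the signals were 38.6, 34.5 and 45.5 at 1 Gy, against 22.9, 17.6 and 27.0 at 0 Gy. These doses did not overlap, as for 12.8% of the tested probe sets in this direction and 17.1% in the other, but all 6 values lay under 100 and no test was made. For the other, 1427683_at, line 1 was lower at 1 Gy (42.7, against 74.7 at 0 Gy) and lines 2 and 3 were higher.

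**Figure D2:**
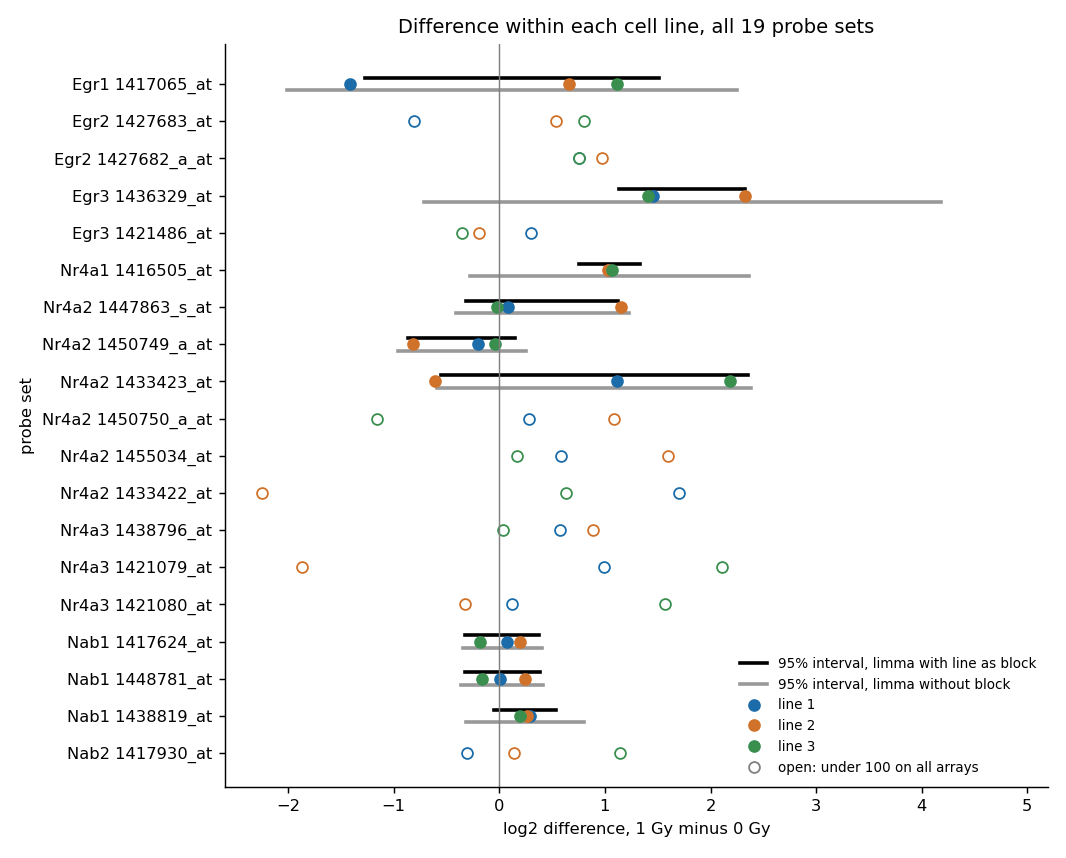
Log2 differences, 1 Gy minus 0 Gy (horizontal axis), for the 19 probe sets (vertical axis), with 1 point per cell line and limma's 95% intervals for the 9 that were tested. The points of Nr4a1 lie on each other between 1.03 and 1.07, the blocked intervals of Nr4a1 and Egr3 1436329_at lie above 0, and those of Nab1 include 0.

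Nab1, the corepressor of EGR proteins, was measured by 3 probe sets that were at 100 or above on all 6 arrays. The brightest, 1417624_at, had signals of 3702, 4279 and 3903 in lines 1 to 3 at 1 Gy, against 3515, 3735 and 4439 at 0 Gy. Lines 1 and 2 were slightly higher after irradiation and line 3 lower. Its log2 fold change was 0.03 ± 0.15 (standard error, limma's adjusted p = 0.939), with a 95% interval of 0.788-fold to 1.32-fold. The next, 1448781_at, gave signals of 718, 774 and 782 at 1 Gy, against 715, 653 and 874 at 0 Gy. Its interval without the block was 0.780-fold to 1.34-fold. For 1438819_at, the dimmest of the 3, signals were 258, 299.8 and 195.7 at 1 Gy, against 211, 251 and 171 at 0 Gy. This probe set was higher in 3 of 3 lines, by 1.14-fold to 1.22-fold, as were 24.7% of the probe sets tested. It did not pass (adjusted p = 0.588 from limma, and 0.188 with the block). Nab2, the other corepressor, had 1 probe set with signals of 41.1, 13.5 and 75.9 at 1 Gy, against 50.8, 12.3 and 34.4 at 0 Gy. All lay under 100, with no common direction.

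Many other immediate early genes passed limma's test with dose as the only factor, which no member passed. Of 37 measured genes of the rapid response to receptor and mitogen signals, 11 were higher after 1 Gy and 0 lower (limma), against 2.12% of all genes tested that were higher and 3.23% that were lower. With the line as a block, 21 were higher and 2 lower, against 6.62% and 14.7% of all genes. Nr4a1 and Egr3 were also higher in that fit. The 21 include Plk3, tested only because 1 irradiated array reached 100, where 0 mock arrays did. This list and the lists of upstream genes and of partners and targets below were chosen with earlier results of these data known. Their counts beside the shares of all genes are thus descriptions and no test. The median log2 fold change of the list was 1.24, and that of all 9678 genes tested was -0.11. The 6 called genes with the largest log2 fold changes were Ier3 (4.26), Maff (3.81), Cd69 (2.73), Atf3 (2.68), Tnfaip3 (2.52) and Dusp1 (2.03). Ier3 reached 100 on the 3 irradiated arrays and on 0 mock arrays (24.8, 23.97 and 48.9), so it was tested only through its irradiated signals and its fold rests on a dim mock signal. Maff, Atf3 and Dusp1 reached 100 on 1 mock array each. Dusp1, a phosphatase that switches off MAP kinases, had signals of 365, 379 and 469 at 1 Gy, against 133, 78.2 and 91.1 at 0 Gy, with no overlap (adjusted p = 0.0208 from limma). The same lack of overlap, in this direction, held for 12.8% of the probe sets tested. Without the irradiated array of line 1, 2 or 3, limma called 1, 0 or 2 of the list higher, where it called 7, 0 or 11 of all probe sets higher. Without the mock array of line 1, 2 or 3, it called 6, 0 or 4 of the list and 61, 0 or 28 of all probe sets higher. With 5 arrays calls were thus lost across the whole array, and not in the list alone.

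Of 35 measured genes for kinases and factors known to act upstream of Egr and Nr4a transcription, 4 were higher and 4 lower by limma, against 2.12% and 3.23% of all genes. With the block 9 were higher and 5 lower, against 6.62% and 14.7% of all genes, so that the lower count lay at the level of all genes. The median log2 fold change was 0.11. Srf, the gene of serum response factor, rose to signals of 2057, 1578 and 1314 in lines 1 to 3 at 1 Gy, against 758, 694 and 682 at 0 Gy (log2 fold change 1.19 ± 0.20 standard error, limma's adjusted p = 0.0365). Elk3, a ternary complex factor that binds with serum response factor and can repress, fell to 321, 498 and 247 at 1 Gy, against 976, 1263 and 899.98 at 0 Gy (log2 fold change -1.60, adjusted p = 0.0443 from limma). Neither gene's doses overlapped, as for 12.8% of the probe sets tested that were higher and 17.1% that were lower. Map3k8, a kinase upstream of ERK, had a log2 fold change of 3.54, and Prkcd, a protein kinase C isoform of B cells, of 1.32. Mapk14 (p38α) and Mapk9 (JNK2) fell by 1.80 and 1.11 on the log2 scale (adjusted p of 0.0239 and 0.0208 from limma). For Creb1, a factor that binds cyclic AMP response elements, chosen after its values were seen, the log2 fold change was 0.71 (adjusted p = 0.0613 from limma, and 0.0375 with the block). Without any 1 of the 6 arrays, limma called 0 genes of this list in either direction, in fits that called 0 to 61 of all probe sets higher and 0 to 33 lower.

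Among partners of the EGR, NR4A and NAB proteins and genes described as their targets in lymphocytes, 7 of 25 were higher and 0 lower (limma), against 2.12% and 3.23% of all genes. With the block 9 were higher and 3 lower, against 6.62% and 14.7% of all genes, and the lower count again lay near that share. The median log2 fold change of the list was 0.02. Chd4, the helicase of the NuRD complex through which NAB proteins repress, rose to signals of 7446, 6489 and 8371 at 1 Gy, against 3332, 3209 and 3416 at 0 Gy (log2 fold change 1.16 ± 0.15 standard error, limma's adjusted p = 0.0240). Irf4, a factor of B cell maturation, had a log2 fold change of 1.00, and Tgif1, a homeobox repressor, of 1.93. Batf, an AP-1 factor, had 1.94, and Id2, an inhibitor of E proteins, 2.61. Tnfrsf9 (4-1BB) also passed, at a mean signal of 75.1 after 1 Gy and 17.6 in mock cells, but it was tested only because 1 irradiated array reached 100, so that its call depends on that filter. Id3, an Egr1 target in developing lymphocytes, was chosen after its values were seen. It had signals of 191, 111 and 462 at 1 Gy, against 1022, 795 and 1839.7 at 0 Gy, lower in 3 of 3 lines with no overlap (log2 fold change -2.42, adjusted p = 0.0775 from limma, and 0.0111 with the block). As many as 17.1% of the probe sets tested were lower with no overlap. Rxrb, a retinoid X receptor that can pair with NR4A1 and NR4A2, was also chosen after its values were seen. Its signals were 2368, 2358 and 2286 at 1 Gy, against 2205, 2345 and 2659.9 at 0 Gy (adjusted p = 0.912 from limma), with a 95% interval of 0.776-fold to 1.23-fold. Without the irradiated array of line 1 or the mock array of line 1, limma called 1 gene of the list, and without any 1 of the other arrays 0.

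**Figure D3:**
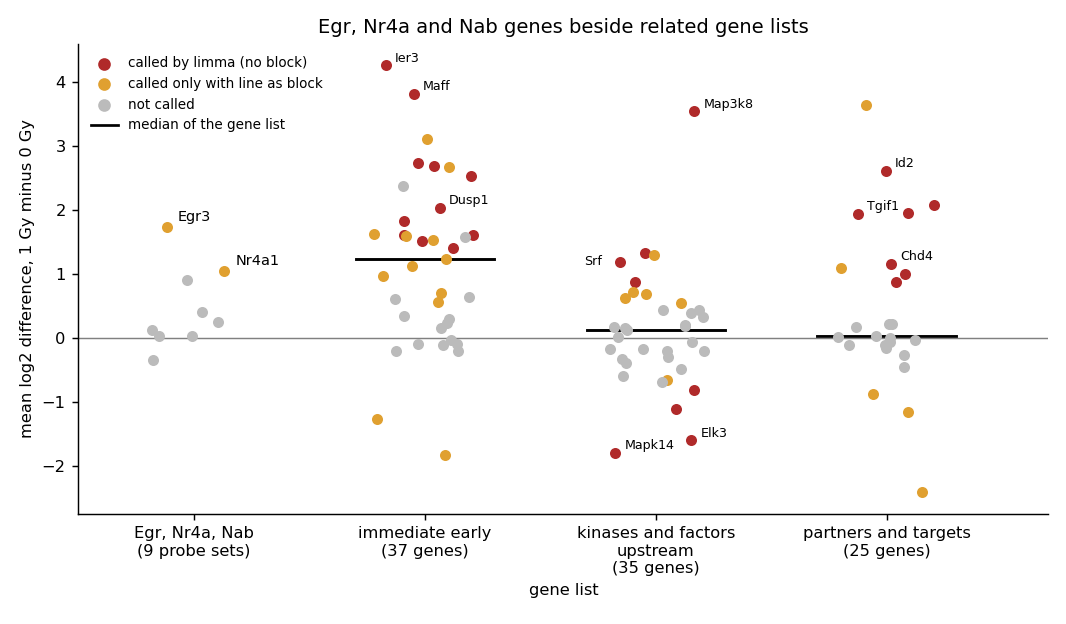
Mean log2 differences, 1 Gy minus 0 Gy (vertical axis), of the 9 tested member probe sets and of the genes of 3 related lists (horizontal axis), coloured by limma's call, with black bars at the list medians of 1.24, 0.11 and 0.02. Egr3 and Nr4a1 passed only in the blocked fit, whereas 11 immediate early genes passed without it.

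The genes most like the brightest member of each family over the 6 arrays were found by Pearson's correlation of log2 signals, among the brightest probe sets of 9673 other genes. These are descriptions over 6 arrays of 3 lines, which all genes share. For Nr4a1 they were Tmem43 (r = 0.996), Agpat4 (0.993) and Zfp52 (0.992), and 50 genes had an r above 0.95. Agpat4, an acyltransferase of phospholipid synthesis, had signals of 952, 1791 and 4722 at 1 Gy, against 234, 554 and 1877 at 0 Gy. Like Nr4a1 it was highest in line 3 and lowest in line 1 at both doses, and higher after 1 Gy in each line. For Egr3 they were Prdm15 (r = 0.987), Ttc1 (0.983) and Pot1a (0.982), with mean log2 fold changes of 0.26, 0.21 and 0.18, far smaller than that of Egr3. For Nab1 they were Stn1 (0.977), Dcun1d3 (0.970) and Zfp770 (0.967).

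**Figure D4:**
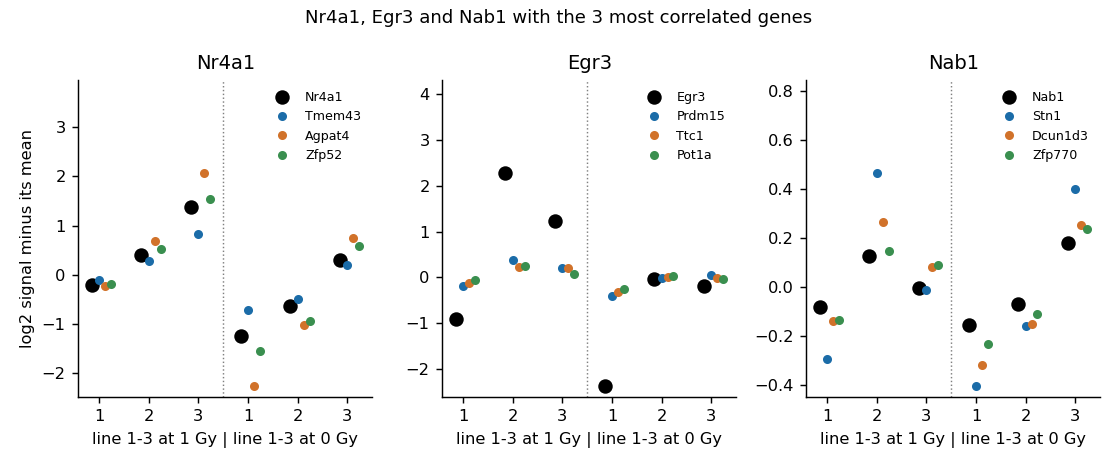
Log2 signals, each gene centred on its own mean (vertical axis), of Nr4a1, Egr3 and Nab1 and of the 3 genes most correlated with each, for lines 1 to 3 at 1 Gy and at 0 Gy (horizontal axis). The points of Nr4a1, Agpat4, Tmem43 and Zfp52 are lowest in line 1 and highest in line 3 at both doses, and the neighbours of Egr3 span a much smaller range than Egr3.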

How the data were processed

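Total RNA of 3 v-Abl transformed pre-B cell lines at 1 Gy and 0 Gy was hybridised to 6 arrays. The authors deposited 1 linear intensity signal per probe set and array. MAS5 is the method named in the submitters' processing notes, and every array has a 2% trimmed mean of 500. The paper describes RMA with quantile normalization, which these signals have not been through. Scanner files were not used here.

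Signals under 1 were set to 1 and log2 was taken. The 64 controls were left out, and the 21762 probe sets that reached 100 on any array were fitted with limma (version 3.58.1, in R 4.3.3). Dose was the only factor (the paper names an ANOVA between the doses and no other factor), and p-values were adjusted by Benjamini-Hochberg over all of them. The spread measured in this fit is that between lines, and in the blocked fit that of the differences within the lines. The design text ties the replicate numbers to the cell lines, and deviations from the dose means correlated at 0.668 to 0.781 between arrays of the same number (3 pairs) and at -0.495 to -0.053 otherwise (6 pairs). Deviations within a dose sum to 0, so values above 0 for the same number push the others below 0. The negative values thus add nothing of their own. The arrays were taken as paired, and the fit with the line as a block is given where it changes a call.

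Gene names came from the platform annotation, and a listed gene was represented by its brightest tested probe set. The members and lists were chosen with earlier results of these data known. Named were the 8 members, up to 6 called genes per list with the largest log2 fold change and the 3 genes most correlated with the brightest member of each family; others are marked. The immediate early list had 40 genes, of which 37 were measured, the upstream list 44 and 35, and the partner and target list 45 and 25. Promoters came from RefSeq (GRCm38.p6). The scripts were tested on simulated arrays. Alternatives covered the block, filter, scaling, pseudocount, floor, variance prior, threshold, test, probe set choice and arrays left out. The number of arrays limits the precision.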

Additional observations from a re-analysis of the deposited data

How the results depend on the processing

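The count of member probe sets called higher was 0 in every fit except the one with the cell line as a replicate block, where it was 2, and 0 were called lower in all fits. With the replicate block, the immediate early genes had 21 higher and 2 lower, the upstream kinases and factors 9 higher, and the partners and targets 3 lower. Without the filter on dim probe sets, limma called 0 genes of each list, and 1 of 45037 probe sets in all. The methods' test called 20 immediate early genes higher and 1 lower, 7 upstream genes higher, and 1 partner or target lower. After Benjamini-Hochberg adjustment it called 5 immediate early, 0 upstream and 2 partner genes higher and 1 upstream gene lower. A common median left 2 upstream genes lower, and a trend in limma's variance prior gave 1 partner gene lower.

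Without single arrays or lines (the latter with the block), calls ranged from 0 to 6 higher and 0 to 1 lower for immediate early genes, from 0 to 1 in both directions for upstream genes, and from 0 to 2 higher and 0 to 1 lower for partners and targets. A smaller number of arrays lowers the power of each of these fits. The log2 fold changes of Nr4a1 and Egr3 1436329_at ranged from 0.62 to 1.46 and from 0.98 to 2.62. The block, filter, variance prior, threshold and test cannot change these 2 values. The blocked fits without a line had to stay above 0, since all 3 lines were higher. Scaling, pseudocount and single arrays left out could change the values, which stayed above 0. Near 0, the sign of others was not stable. Egr1 gave -0.73 to 0.64 without single arrays and -0.15 and -0.37 in the blocked fits without lines 2 and 3. Nab1 1417624_at gave -0.013 after quantile normalization, -0.042 to 0.13 without single arrays and -0.055 in the blocked fit without line 2. Nab1 1448781_at gave -0.063 to 0.15 without single arrays and -0.078 in the blocked fit without line 2. The mean over all tested Nr4a2 probe sets was 0.32, against -0.35 for 1450749_a_at alone. Over all probe sets, 975 were called and 3974 with the block. The cause was not tested. Signals under 100 limit what can be said of Egr2, Nr4a2, Nr4a3 and Nab2.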
